A study of Mus musculus with 28 samples.

Results

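Cbln1, Cbln2 and Olfm3, the genes of 3 secreted proteins that organize synapses, were followed through postnatal development in 2 kinds of retinal amacrine cell of the mouse. They are 3 of the 13617 genes measured, each read by a single transcript cluster of the array (6983999 for Cbln1, 6862827 for Cbln2 and 6900608 for Olfm3). They were picked by name, with earlier results of these data known, and their cluster is the highest on average over the 28 arrays. Their levels and differences are therefore given as descriptions, with errors and without p-values, and tests are given for related genes only.

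Starburst amacrine cells, which release acetylcholine as well as GABA, came from mice in which Cre recombinase knocked into the Chat locus (129S6-Chat_tm1(cre)Lowl/J) switched on a red fluorescent protein at Rosa26 (Rosa26-LSL-RFP). They were measured in 3 arrays at postnatal day 18 (P18) and 3 at P3. Arc amacrine cells carried EGFP from the transgene Tg(Arc-EGFP)194Gsat/Mmcd, in which the regulatory region of the activity-regulated gene Arc drives the green reporter. They were measured in 22 arrays, 1 for each day of P1 to P20 with a second at P6, and 1 at P43. The labels give both cell types a mixed background, of an FVB/N-Swiss Webster hybrid crossed with the strain C57BL/6J, and their protocol states that the line carrying EGFP came from stock with a recessive photoreceptor degeneration mutation and was then backcrossed, while other lines were already on C57BL/6J. The design text speaks of triplicates, while 1 Arc array a day was analysed here, and whether an Arc value is 1 sample or a mean of several is not given in the sources used here. The spread of Arc groups is that between neighbouring days. Each sample held 200 sorted cells, from 1 retina. All starburst arrays bear the batch label B and all Arc arrays a label naming A and B, so cell type cannot be told apart from mouse line, fluorophore and batch label.

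Cerebellins are small secreted proteins of the C1q family. Released by a presynaptic neuron, they bind neurexins on its own terminal and delta glutamate receptors on the postsynaptic side, and so form a bridge across the cleft. Cbln1 is best known from the cerebellum, where parallel fibre synapses on Purkinje cells depend on it, and Cbln2 is a close relative found in many forebrain neurons. Olfm3, also called optimedin or noelin 3, is a secreted glycoprotein with an olfactomedin domain that is found with AMPA-type glutamate receptor complexes and was first described in the rat retina. Amacrine cells, which make most inhibitory contacts of the inner plexiform layer, form their synapses in the postnatal weeks covered here.

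Values are log2 expression. Background was drawn at the value under which 95% of readings of 708 olfactory receptor genes fell, which was 4.13 in starburst and 3.64 in Arc arrays. Markers were set against the labels: of 6 starburst markers, 6 were above background in starburst cells at P18, 5 at P3 (all but Slc5a7, the choline transporter) and 0 in every window of Arc days. Of 8 pan-amacrine markers 8 were above background at each Arc age, and 7 in starburst cells, where Gad2, a GABA-synthesizing enzyme, was below it. Arrays of neighbouring Arc days correlated across genes with r between 0.967 and 0.985 from P2 onward, against 0.960 between P1 and P2 and 0.974 between both P6 arrays.

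Cbln1 and Cbln2 were at or near background in starburst cells and high in Arc cells, at both ages. At P18, Cbln1 read 3.25, 2.55 and 2.79 in the 3 starburst arrays, against 7.13, 7.03 and 7.23 in the Arc arrays of P17, P18 and P19. At P3 it read 3.04, 3.34 and 3.43 in starburst cells, against 6.12, 6.76 and 7.59 in Arc cells of P2, P3 and P4. All 6 starburst values lay below background, and the lowest Arc value stood 3.79 log2 units above the highest starburst value at P18 and 2.69 at P3. Starburst minus Arc was -4.27 ± 0.29 (SE) at P18 and -3.55 ± 0.29 (SE) at P3 in a limma fit over 12 arrays, with 3 in each group. With starburst values below background set to it, Cbln1 was at least 7.99-fold lower in starburst than in Arc cells at P18 and at least 6.46-fold lower at P3.

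Cbln2 showed the wider gap. At P18 it read 3.55, 3.32 and 3.39 in starburst arrays, against 8.77, 8.90 and 9.08 in Arc arrays of P17 to P19, so that the closest values were 5.21 apart. The P3 values in starburst cells were 4.44, 3.11 and 4.26, of which 2 lay just above background, against 7.18, 7.93 and 8.87 in Arc cells of P2 to P4. Starburst minus Arc was -5.50 ± 0.38 (SE) at P18 and -4.05 ± 0.38 (SE) at P3. Against background, Cbln2 was at least 27.6-fold lower in starburst cells at P18 and at least 13.1-fold lower at P3.

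The RefSeq table used here holds 2 start regions for Olfm3. They are shown because a single transcript cluster reads Olfm3, so its values cannot be assigned to either start. Both are on the plus strand of build GRCm38.p6, 300 bases long and written 5′ to 3′, with the E-box motif CANNTG, the letters that basic helix-loop-helix factors bind, in capitals.
Olfm3 first start, chr3:114903828-114904127: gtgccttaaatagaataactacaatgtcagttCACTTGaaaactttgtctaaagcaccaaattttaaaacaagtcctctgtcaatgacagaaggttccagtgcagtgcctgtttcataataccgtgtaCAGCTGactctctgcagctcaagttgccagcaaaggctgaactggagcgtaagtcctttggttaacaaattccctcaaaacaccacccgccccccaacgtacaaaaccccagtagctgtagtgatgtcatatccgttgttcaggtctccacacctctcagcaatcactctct
Olfm3 second start, chr3:115080715-115081014: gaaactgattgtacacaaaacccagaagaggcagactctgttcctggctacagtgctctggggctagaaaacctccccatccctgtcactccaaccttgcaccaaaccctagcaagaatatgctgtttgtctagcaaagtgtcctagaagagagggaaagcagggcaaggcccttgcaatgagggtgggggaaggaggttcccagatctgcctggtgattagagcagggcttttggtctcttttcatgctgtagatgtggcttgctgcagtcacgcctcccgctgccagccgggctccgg
The upstream region holds 2 such motifs and the downstream region 0. The motif reads the same on both strands, and 72.3% of the 32851 start regions of this length in the table hold at least 1, with a median of 1. Searched on both strands, TGACGTCA (held by 1.79% of regions), TAATTA (5.29%) and TATAAA (13.6%) were found in neither Olfm3 region. These are letters in a window and say nothing of binding.

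Olfm3 was near background in both cell types at P3 and high in Arc cells at P18. At P3 it read 2.22, 2.19 and 2.72 in starburst cells, all below background, against 3.36, 3.50 and 4.65 in Arc cells of P2, P3 and P4, of which only the P4 value exceeded background, so no fold is given. At P18 the starburst values were 3.26, 2.17 and 2.59, against 7.98, 7.99 and 8.04 in the Arc arrays of the days P17, P18 and P19. Starburst minus Arc was -5.33 ± 0.32 (SE) at P18. The P3 difference, -1.46 ± 0.32 (SE), lies mostly between values below background and has no readable size. At P18 Olfm3 was at least 14.6-fold lower in starburst cells. No value of either group overlapped the other for any of the 3 genes at either age. How many of all genes show this was not counted, and the 3 genes were chosen with earlier results known. It is therefore a description only. For Olfm3 at P3 the gap, 0.63, lies mostly between values below background. Among all genes 20.7% passed limma's test at P18 (9.69% higher and 11% lower in starburst cells) and 10.8% at P3 (5.13% higher and 5.66% lower), which is background to these chosen genes and not a test of them.

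**Figure D1:**
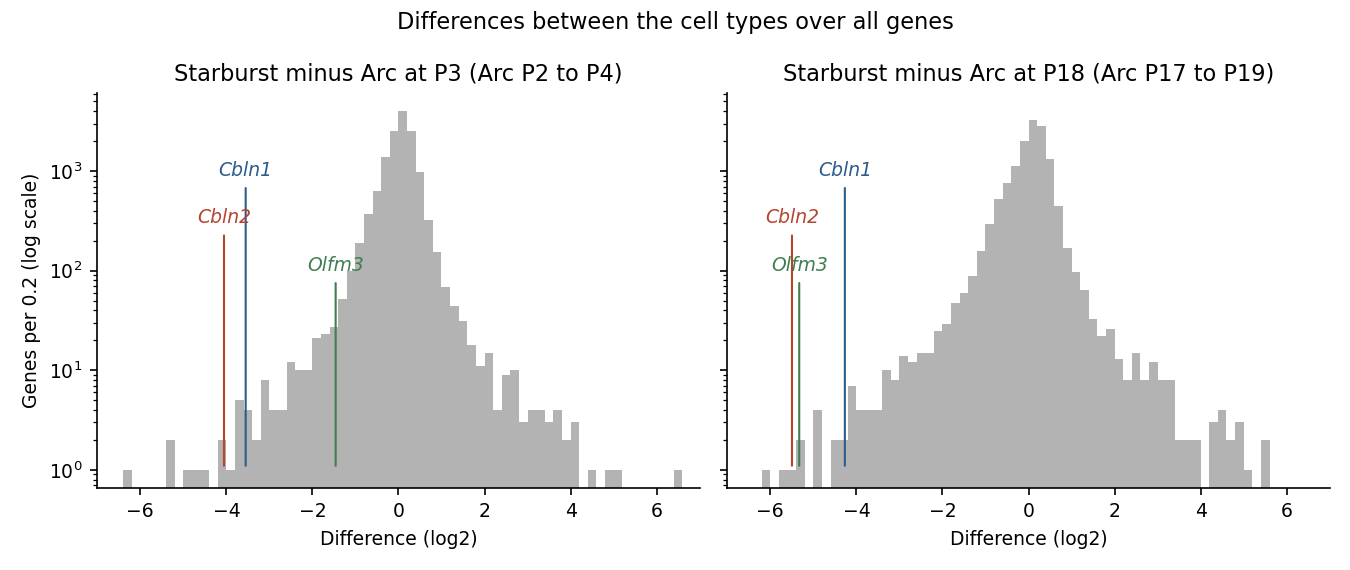
Histograms of the starburst minus Arc difference (log2, x axis) over all 13617 genes (count per bin, log y axis), at P3 on the left and P18 on the right. Vertical lines mark Cbln1, Cbln2 and Olfm3, which lie at -3.55, -4.05 and -1.46 at P3 and at -4.27, -5.50 and -5.33 at P18.

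In Arc cells both cerebellin genes were lowest at P1, higher on each day to P4, and within a narrower range after it. Cbln1 read 4.37 at P1, 6.12 at P2, 6.76 at P3 and 7.59 at P4. From P5 to P16 it lay between 6.35 and 7.21 (median 6.78, 13 arrays), from P17 to P20 between 6.95 and 7.23, and at P43 it read 6.69. The P4 value was thus the highest of the 22 Arc arrays, and the days after it ran lower without returning to the P1 value.

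Cbln2 read 4.35 at P1, 7.18 at P2, 7.93 at P3 and 8.87 at P4. From P5 to P16 it stayed between 7.46 and 8.77 (median 8.30, 13 arrays), the 4 arrays of P17 to P20 lay between 8.77 and 9.08, and P43 read 8.91. The change from P1 to P4, of 4.52 log2 units, was the highest of the 13617 genes, and that of Cbln1, 3.22, ranked 4. Each rests on the single arrays of P1 and P4. The genes were chosen with earlier results known, so these ranks are descriptions only. Between P4 and P20 Cbln2 differed by 0.09 and Cbln1 by -0.64.

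A straight line over P1 to P20 describes these courses poorly and rests on the P1 array. The fitted change was 1.88 ± 0.54 (SE, 21 arrays) for Cbln2 and 1.08 ± 0.37 (SE) for Cbln1. Without P1 it was 0.98 for Cbln2 and 0.52 for Cbln1, and with the logarithm of the day in place of the day it was 2.83 for Cbln2 and 1.63 for Cbln1.

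The P1 array also differed from the later Arc arrays in markers of other cells. The mean of the 5 horizontal cell markers was 3.78 at P1, against 2.64 to 3.36 in the 20 arrays of P2 to P20. Prox1, a transcription factor of horizontal and AII amacrine cells, read 5.21 at P1 and 3.67 at P2. The pan-amacrine list mean, 7.02 at P1, lay inside the range of the later days, 6.98 to 7.32, but its members did not all do so. Gad2 read 7.70 at P1, against at most 6.75 later, while Gad1, the other GABA-synthesizing enzyme, read 6.14, against at least 7.01 later. Tfap2b, an amacrine transcription factor, read 8.89 at P1 and at least 9.01 later. The ganglion cell list was also highest at P1, at 3.94, against at most 3.88 from P2 to P20. Arc itself read 5.33 at P1. The part of these markers in the low cerebellin values of P1 was not tested. In bulk samples such as these, fewer cells that express a gene and less RNA per cell cannot be told apart.

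Olfm3 stood higher in each later window of Arc days up to P20. It read 2.50 at P1, 3.36 at P2, 3.50 at P3 and 4.65 at P4. The 6 arrays of P5 to P9 lay between 4.26 and 5.75 (median 4.83), the 7 of P10 to P16 between 6.02 and 6.90 (median 6.44), and the 4 of P17 to P20 between 7.88 and 8.04 (median 7.98). These windows were drawn after the values were seen, so their lack of overlap is a description only. The P4 value lies within the range of P5 to P9. The P43 array, at 7.69, stood 0.28 below the mean of P17 to P20. The fitted change from P1 to P20 was 4.99 ± 0.33 (SE, 21 arrays), with the values of P1 to P3 below background, and it was 4.74 to 5.14 without any single array.

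**Figure D2:**
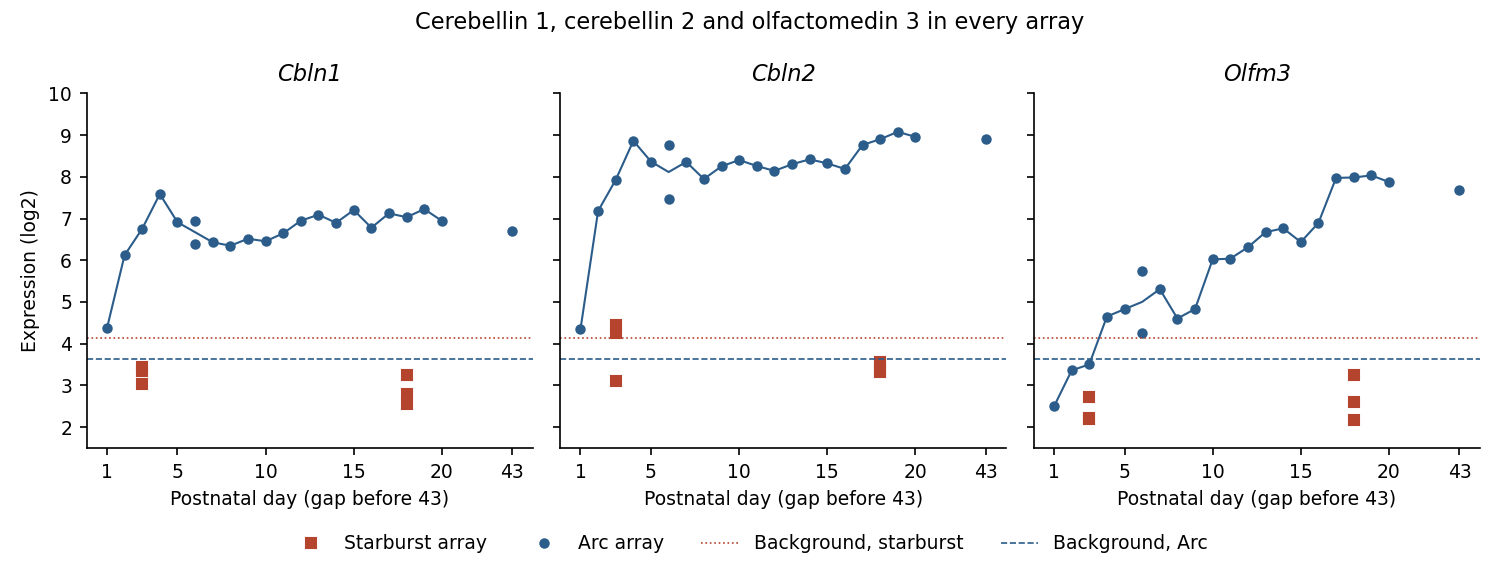
Log2 expression (y axis) of Cbln1, Cbln2 and Olfm3 by postnatal day (x axis, with a gap before P43), 1 symbol per array: squares for 6 starburst arrays, circles for 22 Arc arrays, and a line through the Arc daily means to P20. Dotted and dashed lines mark background at 4.13 for starburst and 3.64 for Arc arrays; starburst values stay at or under 4.44, while Arc values climb by P4 for both cerebellins and through P17 for Olfm3.

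The course of Olfm3 was uneven. Its largest steps between neighbouring days were 1.15 from P3 to P4, 1.19 from P9 to P10 and 1.08 from P16 to P17. Of 19 daily steps 16 were upward. The arrays of P6 are the only Arc pair of the same day, and a single gap per gene is only a rough guide to such steps. Replicate 2 and replicate 1 read 5.75 and 4.26 for Olfm3, 8.77 and 7.46 for Cbln2, and 6.95 and 6.40 for Cbln1. The gaps were 1.49, 1.30 and 0.56. Over all genes the median gap of that pair was 0.17 and the 95th percentile 0.66, which Olfm3 and Cbln2 exceeded and Cbln1 did not. There, 0.147% of genes differed as much as Olfm3, 0.331% as much as Cbln2 and 7.91% as much as Cbln1. No daily step of Olfm3 exceeded its P6 gap, 1 step of Cbln2 did (2.84 from P1 to P2), and 4 of Cbln1 did, at 1.75, 0.64 and 0.83 for the days to P4 and -0.67 from P4 to P5. These counts depend on the size of that single gap, which differed between the genes. At P6, Prox1 moved the other way, with 2.49 in replicate 2 and 3.52 in replicate 1, and its part was not tested.

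**Figure D3:**
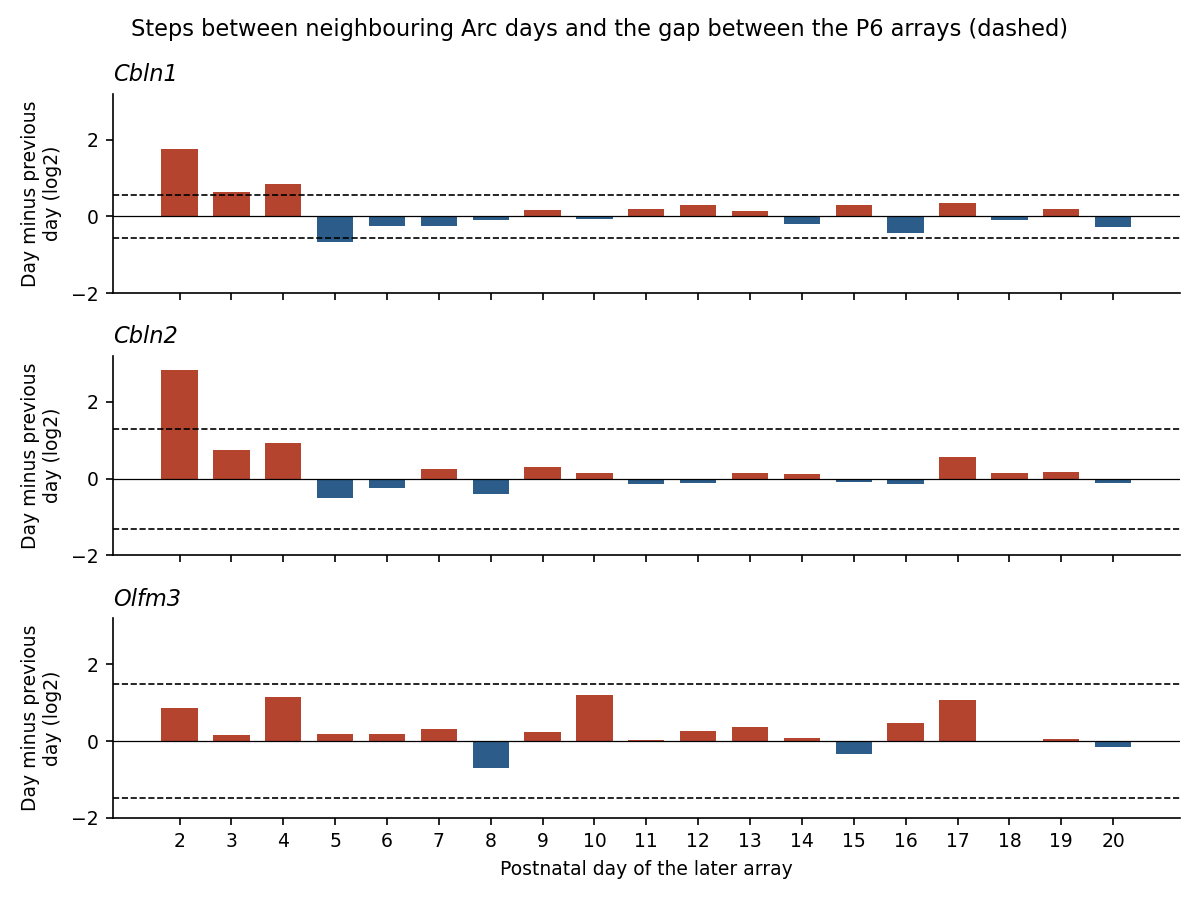
Change in log2 expression from the previous day (y axis) against the day of the later Arc array (x axis, P2 to P20), for each gene, with the P6 arrays averaged. Dashed lines mark plus and minus the gap between the P6 arrays (0.56, 1.30 and 1.49), which the step to P2 exceeds for Cbln1 and Cbln2 and no step exceeds for Olfm3.

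Markers of other retinal cells moved in the same weeks as Olfm3. The mean of 7 Muller glia markers was 4.41 to 4.62 in the arrays of P17 to P20, against 3.43 to 3.62 at P2 to P4. Glul, glutamine synthetase, averaged 6.11 at P17 to P20 and 3.33, below background, at P2 to P4, while Rlbp1, a glial retinoid binding protein, was below background in both windows. The mean of 8 rod markers was 3.79 to 4.18 at P17 to P20, with 5 genes above background, against 2.89 to 3.04 and 1 gene at P2 to P4. In starburst cells the rod list also stood higher at P18, 3.89 to 4.22, than at P3, 3.14 to 3.25. The Muller glia list there did not, with 3.38 to 3.88 at P18 and 3.42 to 3.69 at P3. Olfm3 was below background in all 6 starburst arrays. Horizontal cell markers ran down to 2.64 to 2.69 at P17 to P20, and cone and astrocyte markers were below background in every window. The part of these cells in the Olfm3 course was not tested.

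**Figure D4:**
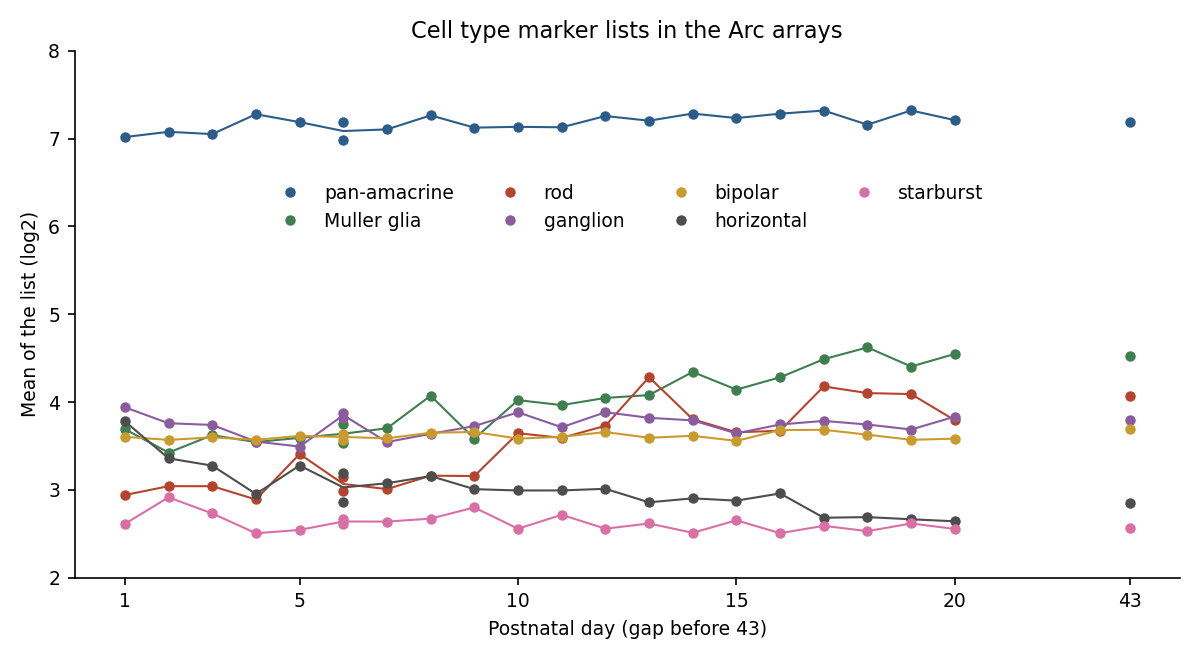
Mean log2 expression (y axis) of 7 lists of cell type markers in each Arc array by postnatal day (x axis, with a gap before P43), with lines through the daily means. The pan-amacrine list stays between 6.98 and 7.32 from P2 to P20, the Muller glia and rod lists rise, and the horizontal list is highest at P1.

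In starburst cells none of these genes left the neighbourhood of background between P3 and P18. The P18 mean was 2.86 ± 0.35 for Cbln1, 3.42 ± 0.12 for Cbln2 and 2.67 ± 0.55 for Olfm3 (SD, n = 3), against 3.27 ± 0.20, 3.94 ± 0.72 and 2.38 ± 0.30 at P3 (SD, n = 3). P18 minus P3 was -0.41 ± 0.20 (SE) for Cbln1, -0.52 ± 0.31 (SE) for Cbln2 and 0.29 ± 0.27 (SE) for Olfm3, sizes that cannot be read as changes at such levels. The starburst change minus the Arc change (P17 to P19 minus P2 to P4) was -3.87 ± 0.45 (SE) for Olfm3, -1.44 ± 0.53 (SE) for Cbln2 and -0.72 ± 0.41 (SE) for Cbln1. These sizes also stand on starburst values near or below background, and for Olfm3 on 2 early Arc values below it. That of Cbln1 was -0.37 without Arc P2 and -1.10 without Arc P4. Of all genes 4.02% passed the test of that difference, 1.67% upward and 2.36% downward, which is not a test of these genes. The Arc days used in that fit begin at P2, after the step that set both cerebellins apart from P1.

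Genes with the most similar profiles were sought over all 28 arrays among 6751 genes with a mean above the median. For Cbln1 they were Kirrel3, an immunoglobulin-type adhesion protein (r = 0.982), Tenm4, a teneurin (0.978), Cbln2 (0.978), Sorcs1, a sorting receptor (0.978), and Clmp, an adhesion molecule (0.977). Those of Cbln2 were Tenm1, another teneurin (0.981), Fgf14, a modulator of sodium channels (0.980), Cbln1 (0.978), Tenm4 (0.976) and Arhgap20, a GTPase-activating protein (0.972). Olfm3 ran closest to Insyn2b, an inhibitory synapse factor (0.979), Dtna, alpha-dystrobrevin (0.974), Cemip, a hyaluronan-binding protein (0.974), Cobl, an actin nucleator (0.972), and Cntn4, a contactin (0.972). The arrays share cell type and age, and the r of both cerebellins was lower within Arc cells. For Cbln1 and Kirrel3 it was 0.920 over the 22 Arc arrays, while for Olfm3 and Insyn2b it was 0.967. With the P1 array left out, it was 0.71 for Cbln1 and Kirrel3, and 0.52 for Cbln1 and Sorcs1, the lowest of the 5 named for Cbln1. Within the 21 Arc arrays without P1, r was 0.699 between Cbln1 and Cbln2, 0.754 between Cbln2 and Olfm3, 0.490 between Cbln1 and Olfm3, and 0.960 between Olfm3 and Insyn2b. Over the 6 starburst arrays, at background levels, Cbln1 and Cbln2 gave 0.307.

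Related genes were then examined in lists of 75 genes, of which 67 were measured. The unmeasured genes of the lists were not analysed here. Besides receptors and partners, the lists hold relatives, other ligands of neurexins and other secreted synaptic organizers. Of the measured genes, 23 were other secreted organizers and 5 were receptors and partners of cerebellins. All are called partner genes below, whether or not they bind these proteins. All tests below are limma's, adjusted by the Benjamini-Hochberg method over 13617 genes, and the lists were chosen with earlier results known, so their counts are read as descriptions beside the share of all genes. That share covers genes of every level and was not matched to the lists in level. The median of every array lay below background.

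Between the cell types at P18, 14 of 67 partner genes were higher and 13 lower in starburst than in Arc cells, 40.3% in all, against 20.7% of all genes. At P3, 3 were higher and 15 lower, 26.9% against 10.8%. That split rests on the choice of Arc days: with both windows widened, to P1 to P5 and P16 to P20, 12 were higher and 12 lower at P3. With each array centred on its median, 11 partner genes were higher and 15 lower at P18, and 2 and 17 at P3. The median difference, without centring, was 0.17 for the lists and 0.10 for all genes at P18, and -0.01 and 0.07 at P3.

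Among receptors and partners of cerebellins, Nrxn3, the presynaptic neurexin measured here, was well above background in both cell types. It averaged 7.59 ± 0.12 in starburst cells, against 7.49 ± 0.13 in Arc cells, at P18, and 7.17 ± 0.22 in starburst against 7.67 ± 0.06 in Arc cells at P3 (SD, n = 3 each). The P3 difference of -0.50 passed the test at adjusted p = 0.0324 but was lost in 8 of 18 alternatives, with adjusted p up to 0.686. Grid1, a delta glutamate receptor to which cerebellins bind, was below background on average in starburst cells at both ages, with 3.30 ± 0.16 at P18 and 4.05 ± 0.32 at P3, against 3.37 ± 0.23 and 3.86 ± 0.22 in Arc cells (SD, n = 3 each). Its differences between cell types did not pass. Neo1, neogenin, a receptor of netrins, was lower in starburst cells at P18, by -1.22 ± 0.19 (SE, adjusted p = 0.000613), and at P3, by -1.17 ± 0.19 (SE, adjusted p = 0.00140). Dcc, the netrin receptor that Cbln4 also binds, was higher in starburst cells at P18, with 5.72 ± 0.42 against 4.36 ± 0.04 in Arc cells (SD, n = 3 each, adjusted p = 0.000265). Cbln3, a cerebellin that acts with Cbln1 in cerebellar granule cells, was below background in every group.

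C1ql1 and C1ql2, secreted C1q-like proteins of the same superfamily, were also lower in starburst cells. C1ql1, the ligand of Adgrb3 at climbing fibre synapses, averaged 4.91 ± 0.28 in starburst and 8.55 ± 0.35 in Arc cells at P18, and 4.45 ± 0.31 against 7.62 ± 0.20 at P3 (SD, n = 3 each). The differences of -3.64 ± 0.21 and -3.17 ± 0.21 (SE) had adjusted p of 5.7e-08 and 4.08e-07. C1ql2 differed by -1.77 ± 0.20 (SE) at P18 and -1.58 ± 0.20 (SE) at P3. Adgrb3, the adhesion receptor of C1q-like proteins, did not pass between cell types, with 5.49 ± 0.31 in starburst and 5.87 ± 0.09 in Arc cells at P18 (SD, n = 3 each).

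Of other ligands of neurexins, Lrrtm2, a postsynaptic leucine-rich repeat protein, was lower in starburst cells. It averaged 4.06 ± 0.99 against 6.97 ± 0.11 in Arc cells at P18 and 2.95 ± 0.58 against 6.68 ± 0.29 at P3 (SD, n = 3 each). Both starburst means lay below background, so the sizes of these differences cannot be read exactly. Clstn2, calsyntenin 2, was the reverse at P18, with 6.27 ± 0.34 in starburst and 2.90 ± 0.05 in Arc cells (SD, n = 3 each), where Arc values were below background. Its adjusted p was 9.13e-09.

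Of 7 measured relatives of Olfm3 in the olfactomedin family, 1 was higher and 0 lower in starburst cells at P18, and 0 and 1 at P3. This is 14.3% at each age, against 20.7% of all genes at P18 and 10.8% at P3. Olfm1, noelin 1, was lower in starburst cells at P3, with 4.59 ± 0.62 against 6.03 ± 0.13 in Arc cells (adjusted p = 0.00174), and read 6.46 ± 0.20 and 6.43 ± 0.17 at P18, a difference of 0.03 ± 0.24 (SE) that did not pass (SD, n = 3 each). Olfml3 was the gene that was higher at P18, by 0.80 ± 0.25 (SE, adjusted p = 0.0415), a call lost in 7 of 18 alternatives, with adjusted p up to 0.161. Olfm2 lay below background in both cell types. Among proteins that work with olfactomedin domains, the latrophilin Adgrl2 was lower in starburst cells at P3, by -2.52 ± 0.36 (SE), and the latrophilin ligand Flrt2 higher, by 2.13 ± 0.18 (SE). Gria3, an AMPA receptor subunit, was lower by -3.58 ± 0.22 (SE) at P3 and by -1.23 ± 0.22 (SE) at P18.

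With age in Arc cells, 16 of 67 partner genes rose and 19 fell, 52.2% in all, against 37.7% of all genes, among which 14.7% rose and 23.0% fell. With each array centred on its median, 2462 genes rose and 1389 fell, in place of 2005 and 3132, and with cyclic loess 2033 and 1767. Of the partner genes 17 rose and 13 fell with centring, and 15 rose and 16 fell with cyclic loess. C1ql1 rose by 1.41 ± 0.19 (SE, adjusted p = 1.87e-06) and its receptor Adgrb3 by 0.85 ± 0.17 (SE, adjusted p = 0.000314). Of 5 cerebellin receptors and partners 1 rose and 3 fell: Neo1 fell by 1.05, Dcc fell by 0.96 and Grid1 read lower by 0.58. Grid1 averaged little above background at P2 to P4 and below it at P17 to P19, so its size cannot be read exactly. The calls of Dcc and Grid1 were each lost in 1 of 28 alternatives. Nrxn3 had a change of -0.17 ± 0.09 (SE) that did not pass. Of the olfactomedin family, Olfm1 rose by 0.51 ± 0.15 (SE, adjusted p = 0.00916), a call lost in 3 of 28 alternatives, and Olfm2, below background in all Arc arrays, had a change of -0.41 (adjusted p = 0.0128), lost in 4 of 27. Adgrl3 and Adgrl2, latrophilins, fell by 1.71 and 1.69, and the neuronal pentraxins Nptx2 and Nptx1, secreted clusterers of AMPA receptors, rose by 2.68 and 2.45. With P1 to P16 alone, 10 partner genes rose and 6 fell.

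In starburst cells at P18 against P3, 13 of 67 partner genes rose and 5 fell, 26.9% in all, against 8.65% of all genes, of which 4.76% rose and 3.89% fell. Olfm1 was the 1 of 7 olfactomedin relatives that changed, with 6.46 ± 0.20 at P18 against 4.59 ± 0.62 at P3 (SD, n = 3 each, adjusted p = 0.00354). Gria3 rose by 3.22 ± 0.20 (SE) and Gria1, another AMPA receptor subunit, fell by 2.04. Clstn2 rose by 3.25 ± 0.20 (SE) and Lgi3, a secreted ligand of ADAM-family receptors, by 2.62 ± 0.18 (SE), both from below background at P3. Neo1 fell by 1.08. Grid1 read lower by 0.75, at adjusted p = 0.0491 and lost in 7 of 12 alternatives. Its means were below background at both ages, so this size cannot be read as a change. No C1q-like gene passed, C1ql1 having a change of 0.46 ± 0.21 (SE, adjusted p = 0.258).

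**Figure D5:**
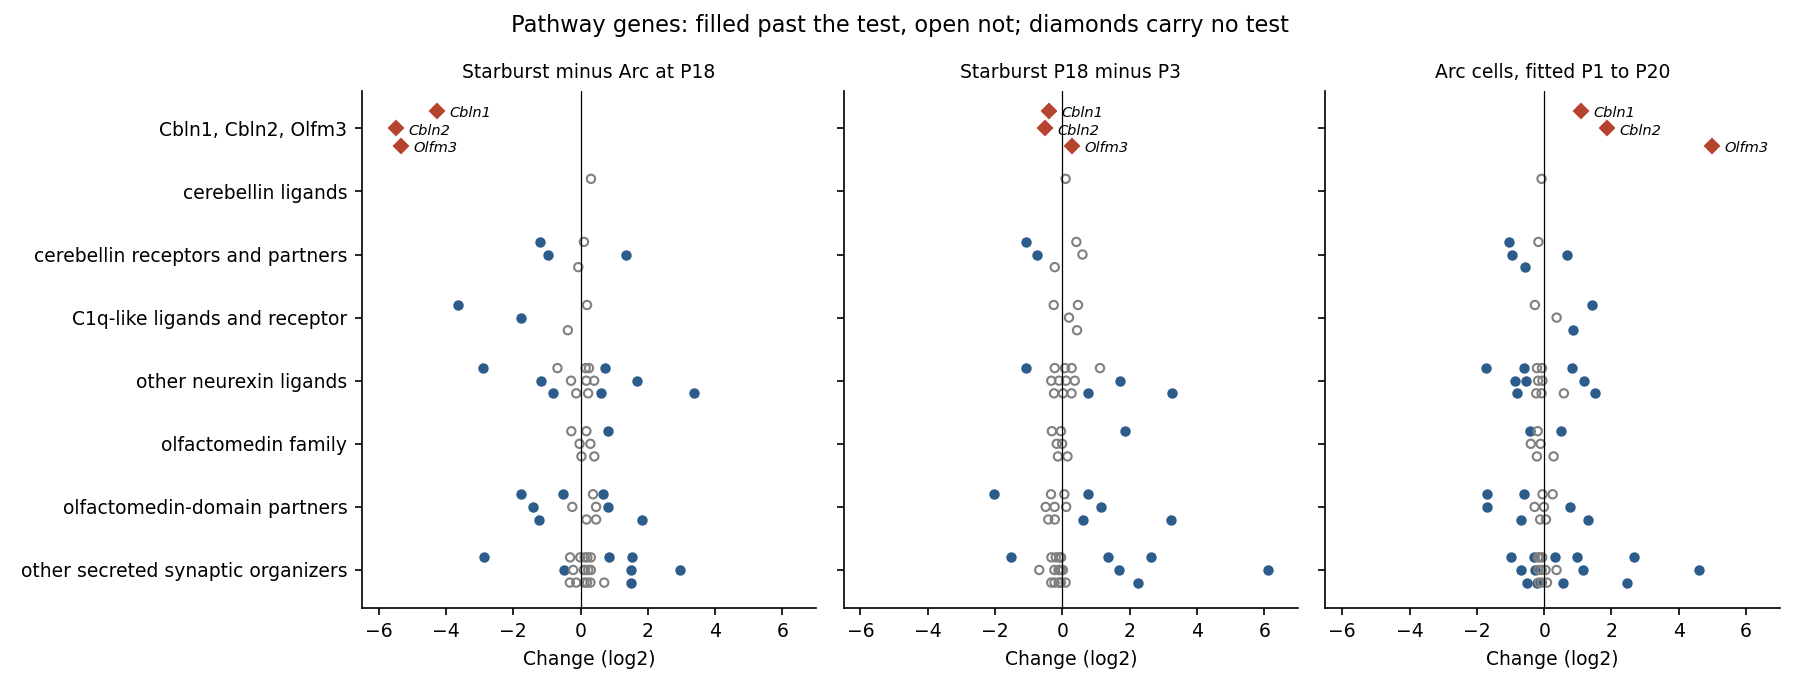
Log2 change (x axis) of each measured partner gene by list (y axis), for starburst minus Arc at P18, starburst P18 minus P3 and the fitted change of Arc cells from P1 to P20. Filled circles passed limma's test and open circles did not; diamonds are Cbln1, Cbln2 and Olfm3, which carry no test and in the first panel stand on starburst values below background.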

How the data were processed

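The deposited values are log2 expression per transcript cluster. Per the submitters' processing notes, the authors used R 2.11.1 and RMA, with build mm8. Which arrays were normalized together, and any filter or batch correction, is not given in the sources used here. The base of the logarithm follows RMA's convention. The number of arrays limits the precision.

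Of 15170 rows, the 13720 with 1 gene symbol were kept (869 had several, 581 none), and for 102 genes with more than 1 row the row with the highest mean was used. No gene was filtered. Background was set from olfactory receptor genes, on all arrays of a cell type. Linear models were fitted in limma 3.58.1 (R 4.3.3), letting the prior variance follow the mean level. Tests were two-sided at an adjusted p under 0.05, and the code was tested on simulated data. The age trend is the slope in days over 21 Arc arrays multiplied by 19. In the fit of both cell types over 12 arrays, neighbouring days stand in for Arc replicates. P-values measure only the spread between these samples.

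The genes and the partner lists were chosen with earlier results of these data known. Any measured partner gene could be named, and similar profiles were the 5 highest Pearson r per gene. Alternatives were other normalizations, filters, age scales, Arc days and arrays left out.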

Additional observations from a re-analysis of the deposited data

Results flagged for a closer look

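For 16 of the 67 partner genes (23.9%, against 4.02% of all genes) the change from P3 to P18 in starburst cells differed from the change of Arc cells between P2 to P4 and P17 to P19, by limma's interaction test over 12 arrays. Values are the starburst change minus the Arc change on the log2 scale, followed by both changes.

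In the olfactomedin and cerebellin groups, Olfm1 differed by 1.47, with a starburst change of 1.87 and an Arc change of 0.40 (adjusted p = 0.0275, lost in 8 of 18 alternatives). For the netrin receptor, Dcc differed by 1.22, with a starburst change of 0.60 and an Arc change of -0.62 (adjusted p = 0.0226, lost in 6 of 18). Of latrophilins and their ligands, Adgrl3 differed by 1.04, with a starburst change of -0.50 and an Arc change of -1.54 (lost in 4 of 18, with adjusted p up to 0.0583), and Flrt1 differed by 1.44, with a starburst change of 1.15 and an Arc change of -0.29. For AMPA receptor subunits, Gria3 differed by 2.35, with a starburst change of 3.22 and an Arc change of 0.87 (lost in 1 of 18), while Gria1 differed by -1.18, with a starburst change of -2.04 and an Arc change of -0.86.

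Among ligands of neurexins, Clstn2 differed by 3.40, with a starburst change of 3.25 and an Arc change of -0.15. Its starburst values at P3 and its Arc values at P18 were below background. Nxph4 differed by 2.80, with a starburst change of 1.72 and an Arc change of -1.08. Lrrtm1 differed by 1.47, with a starburst change of 0.28 and an Arc change of -1.20 (lost in 1 of 18). Nlgn1 differed by -0.77, with a starburst change of -1.09 and an Arc change of -0.32 (adjusted p = 0.0441, lost in 12 of 18 alternatives).

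Of other secreted organizers, Nptx2 differed by -2.05, with a starburst change of -0.12 and an Arc change of 1.93. Lgi3 differed by 2.69, with a starburst change of 2.62, from below background at P3, and an Arc change of -0.06. Sparcl1 differed by 2.24, with a starburst change of 6.10 and an Arc change of 3.85. Adam23 differed by 1.35, with a starburst change of 2.25 and an Arc change of 0.90. Sparc differed by 1.14, with a starburst change of 1.36 and an Arc change of 0.22. Agrn differed by 0.94, with a starburst change of 0.10 and an Arc change of -0.85.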

How the results depend on the processing

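Each result was recomputed under the alternatives. The starburst minus Arc difference at P18 was -3.94 for Cbln1 and -4.99 for Cbln2 after cyclic loess, and -5.68 for Cbln2 with each array centred on its median. With the logarithm of the day the fitted change in Arc cells was 2.83 for Cbln2 and 5.66 for Olfm3. Leaving out single arrays gave 0.52 to 1.33 for Cbln1 and 0.98 to 2.14 for Cbln2, the lower values being those without P1. Without 1 array the interaction ran from -1.10 to -0.37 for Cbln1 and -1.88 to -1.04 for Cbln2, and starburst P18 minus P3 from -0.60 to -0.26, -0.93 to -0.27 and 0.0004 to 0.55 for Cbln1, Cbln2 and Olfm3. Cbln1, Cbln2 and Olfm3 each had 1 row, so no other row could be tried for them. Of the partner genes, Gria4 reversed at P18 after cyclic loess, at 0.12 (adjusted p = 0.650), in place of -0.51. With P1 to P16 alone 1966 genes and 16 partner genes passed the age trend. Among genes above the median mean, 3418 genes and 27 partner genes passed it. With both Arc windows widened, to P1 to P5 and P16 to P20, 2470 genes passed between the cell types at P3, in place of 1469. Leaving out single arrays gave 931 to 1507 genes at P3 (931 without Arc P4) and 1586 to 2873 at P18 (1586 without Arc P19, 1813 without Arc P18, 1852 without starburst P18 replicate 1), against 2820. With each array centred, 408 genes were higher and 1028 lower in starburst cells at P3, in place of 698 and 771, and 544 and 2225 at P18, in place of 1320 and 1500. Starburst replicate numbers did not pair the samples (correlations of same-numbered deviations 0.05, 0.02 and -0.04). With the replicate block 1060 genes passed in starburst P18 against P3, in place of 1178, and 16 partner genes in place of 18. With no detection calls, background rests on the olfactory receptor genes.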
